A study of Mus musculus with 48 samples.

Results

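The genes described here are 4 sensors of foreign and reactive compounds in mouse liver and 6 enzymes that work in the same detoxification pathways. The sensors are Nr1i2 (the pregnane X receptor, PXR), Nr1i3 (the constitutive androstane receptor, CAR), Ahr (the aryl hydrocarbon receptor) and Nfe2l2 (the transcription factor Nrf2), and the enzymes are Cyp1a2, Cyp2e1, Por, Nqo1, Ephx1 and Gclc. They were found by gene symbol in a table of read counts for 55414 genes. Their identifiers there are ENSMUSG00000022809 (Nr1i2), ENSMUSG00000005677 (Nr1i3), ENSMUSG00000019256 (Ahr), ENSMUSG00000015839 (Nfe2l2), ENSMUSG00000032310 (Cyp1a2), ENSMUSG00000025479 (Cyp2e1), ENSMUSG00000005514 (Por), ENSMUSG00000003849 (Nqo1), ENSMUSG00000038776 (Ephx1) and ENSMUSG00000032350 (Gclc). All 10 were matched, and all 10 were among the 15414 genes that passed the filter on low counts and were tested.

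The livers came from 48 FCG mice on a C57BL/6 background, in 8 groups of 6. In this model of sex chromosomes and gonads, the testis-determining gene Sry is deleted from the Y chromosome and carried as an autosomal transgene, so mice with XX or with XY chromosomes can have either ovaries (Ov) or testes (Te). By the labels, mice were either left intact, with 11 weeks of high-fat diet (HFD), or gonadectomized (GDX) at 75 days of age, with 15 weeks of HFD. The methods of the study give other diet times, shorter for the intact and longer for the GDX mice. The diet gave 60% of calories as fat, started between 15 and 17 weeks of age and was eaten by all 48 mice. No group ate chow, and the labels name no drug or other foreign compound. Mice with testes carry the Sry transgene and mice with ovaries do not, so the transgene and the testes cannot be told apart. Intact and GDX mice also differ in weeks of HFD and in the share of reads that fell outside genes, which was 3.47 to 6.20% in intact and 8.52 to 11.3% in GDX mice. With the same starting ages, the longer diet of the GDX mice also ended at a later age by the labels. The removal of the gonads, the diet time, the age and the library therefore cannot be told apart. Among intact mice, unmapped reads made up 8.42 to 16.5% in the XY Te group and 6.99 to 11.0% in the other groups. The part of this difference in the results was not tested.

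Levels are given as CPM, the counts of a gene relative to the reads on all genes of its library, scaled by TMM. The reads on genes numbered between 13071874 and 20045141 (median 16577748), and 3 reads corresponded to between 0.150 and 0.230 CPM. Of 8 hepatocyte markers 7 were matched, none was at 0 in any group, and their summed level was 66324 to 145731 CPM. Xist was at 166 to 1203 CPM in XX and at 0.437 to 7.50 CPM in XY mice, and 4 Y-linked genes were at 4.26 CPM or less in XX and at 14.9 CPM or more in XY mice, so all 48 libraries carried the sex chromosomes their labels gave. In bulk liver, fewer cells of a type and less RNA per cell cannot be told apart.

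PXR and CAR are nuclear receptors that are activated by many drugs and bile acids and switch on genes for oxidation, conjugation and transport, both with RXR as their partner. The AhR, a receptor in the cytoplasm until a ligand such as a dioxin binds, pairs with ARNT and induces the Cyp1 family. Nrf2 is held for degradation by KEAP1 until electrophiles or oxidants modify KEAP1, after which it induces genes for glutathione synthesis, quinone reduction and NADPH supply. Liver is where all of these systems are most used, and several of their enzymes, Cyp2e1 and Cyp1a2 among them, are known to be made mainly by hepatocytes around the central vein.

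The sequences before the transcription start sites of 4 members are shown because the results turn on them, on Por and Nqo1 between intact and GDX mice and on Nqo1, Ephx1 and Nr1i2 between XX and XY mice. They are the 250 bases before the RefSeq start in GRCm38.p6, written 5′ to 3′ on the strand of the gene, with motif matches in capitals. In Por (chr5:135688895-135689144, plus strand) the capitals are 3 matches to GCGTG, the core of the site that the AhR and ARNT bind. In Nqo1 (chr8:107403206-107403455, minus strand) they mark TATAAA, the letters of the TATA box, 29 bases before the start. In Ephx1 (chr1:181017570-181017819, minus strand) they mark the same letters 214 bases before the start, too far upstream to be read as its TATA box. Nr1i2 (chr16:38294825-38295074, minus strand) had no match.
Por: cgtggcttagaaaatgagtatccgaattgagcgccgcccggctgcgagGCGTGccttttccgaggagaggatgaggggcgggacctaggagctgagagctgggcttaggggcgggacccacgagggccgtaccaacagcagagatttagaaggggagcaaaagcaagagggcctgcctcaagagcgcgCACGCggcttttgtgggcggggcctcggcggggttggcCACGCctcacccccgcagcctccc
Nqo1: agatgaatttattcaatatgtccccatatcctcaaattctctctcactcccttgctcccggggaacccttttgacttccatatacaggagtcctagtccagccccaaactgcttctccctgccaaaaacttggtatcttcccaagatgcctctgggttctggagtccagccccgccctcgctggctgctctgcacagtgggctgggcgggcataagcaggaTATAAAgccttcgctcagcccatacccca
Ephx1: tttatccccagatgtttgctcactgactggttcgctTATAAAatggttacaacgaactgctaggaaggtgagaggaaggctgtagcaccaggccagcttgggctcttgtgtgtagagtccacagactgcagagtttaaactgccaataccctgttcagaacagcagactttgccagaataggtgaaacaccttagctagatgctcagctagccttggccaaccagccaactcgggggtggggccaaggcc
Nr1i2: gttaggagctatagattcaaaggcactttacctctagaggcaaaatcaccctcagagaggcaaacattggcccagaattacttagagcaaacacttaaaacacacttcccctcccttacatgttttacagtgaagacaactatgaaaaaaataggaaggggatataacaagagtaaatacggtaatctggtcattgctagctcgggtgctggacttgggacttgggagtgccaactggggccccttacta

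RefSeq windows of 300 bases (250 before to 50 after the start) were matched for 8 of the 10 members, all but Ahr and Gclc, and 4 motifs were searched on both strands. GCGTG was found in Por alone of the 8, starting 202 bases before the start on the strand of the gene and 62 and 24 bases before it on the other strand, and it occurred in 32.4% of all 32851 windows. TGACNNNGC, the core of the antioxidant response element bound by Nrf2, was found in Nfe2l2 alone, 240 bases before the start, and in 12.4% of all windows. AGGTCA, the core hexamer of nuclear receptor sites, was found in none of the 8 and in 16.3% of all windows. TATAAA was found in 4, starting 29 bases before the start in Nqo1 and Cyp1a2, 31 in Cyp2e1 and 214 in Ephx1, and in 13.6% of all windows. No match overlapped another in the members, and a match is a description of the letters only.

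Per exon length, the enzymes spanned a wide range and the sensors were low. Median levels over the 48 mice, in RPKM (CPM divided by exon length in kilobases), were 4822 for Cyp2e1, which oxidises ethanol and small solvents, 155 for Ephx1, the microsomal epoxide hydrolase, 124 for Cyp1a2, the main constitutive Cyp1 enzyme of liver, 119 for Por, the reductase that passes electrons from NADPH to all microsomal P450 enzymes, and 63.0 for Gclc, the catalytic subunit of the first step of glutathione synthesis. The sensors were at 26.9 (Nfe2l2), 25.2 (Nr1i2), 18.0 (Nr1i3) and 8.32 RPKM (Ahr), and the quinone reductase Nqo1 was lowest at 8.06 RPKM. Across the 8 groups, the ratio of the highest to the lowest group mean in CPM was 2.96 for Nqo1, 2.36 for Ephx1, 2.07 for Por, 1.89 for Gclc, 1.85 for Nr1i2, 1.64 for Cyp1a2, 1.56 for Nr1i3, 1.44 for Cyp2e1, 1.27 for Ahr and 1.13 for Nfe2l2. With the 8 means in order, 7 pairs are neighbours, and the gap was larger than the larger SD for 2 pairs in Nr1i2 and in Ephx1, for 1 pair in Por, Nqo1 and Gclc, and for none in the other 5 members. In Por the gap lay between XY Te GDX and XY Ov Intact, at 225 CPM, and parted every GDX group mean from every intact one. In Ephx1 and Gclc a gap lay directly below XX Te GDX, at 121 and 63.1 CPM, with no overlap of mice between that group and the next.

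**Figure D1:**
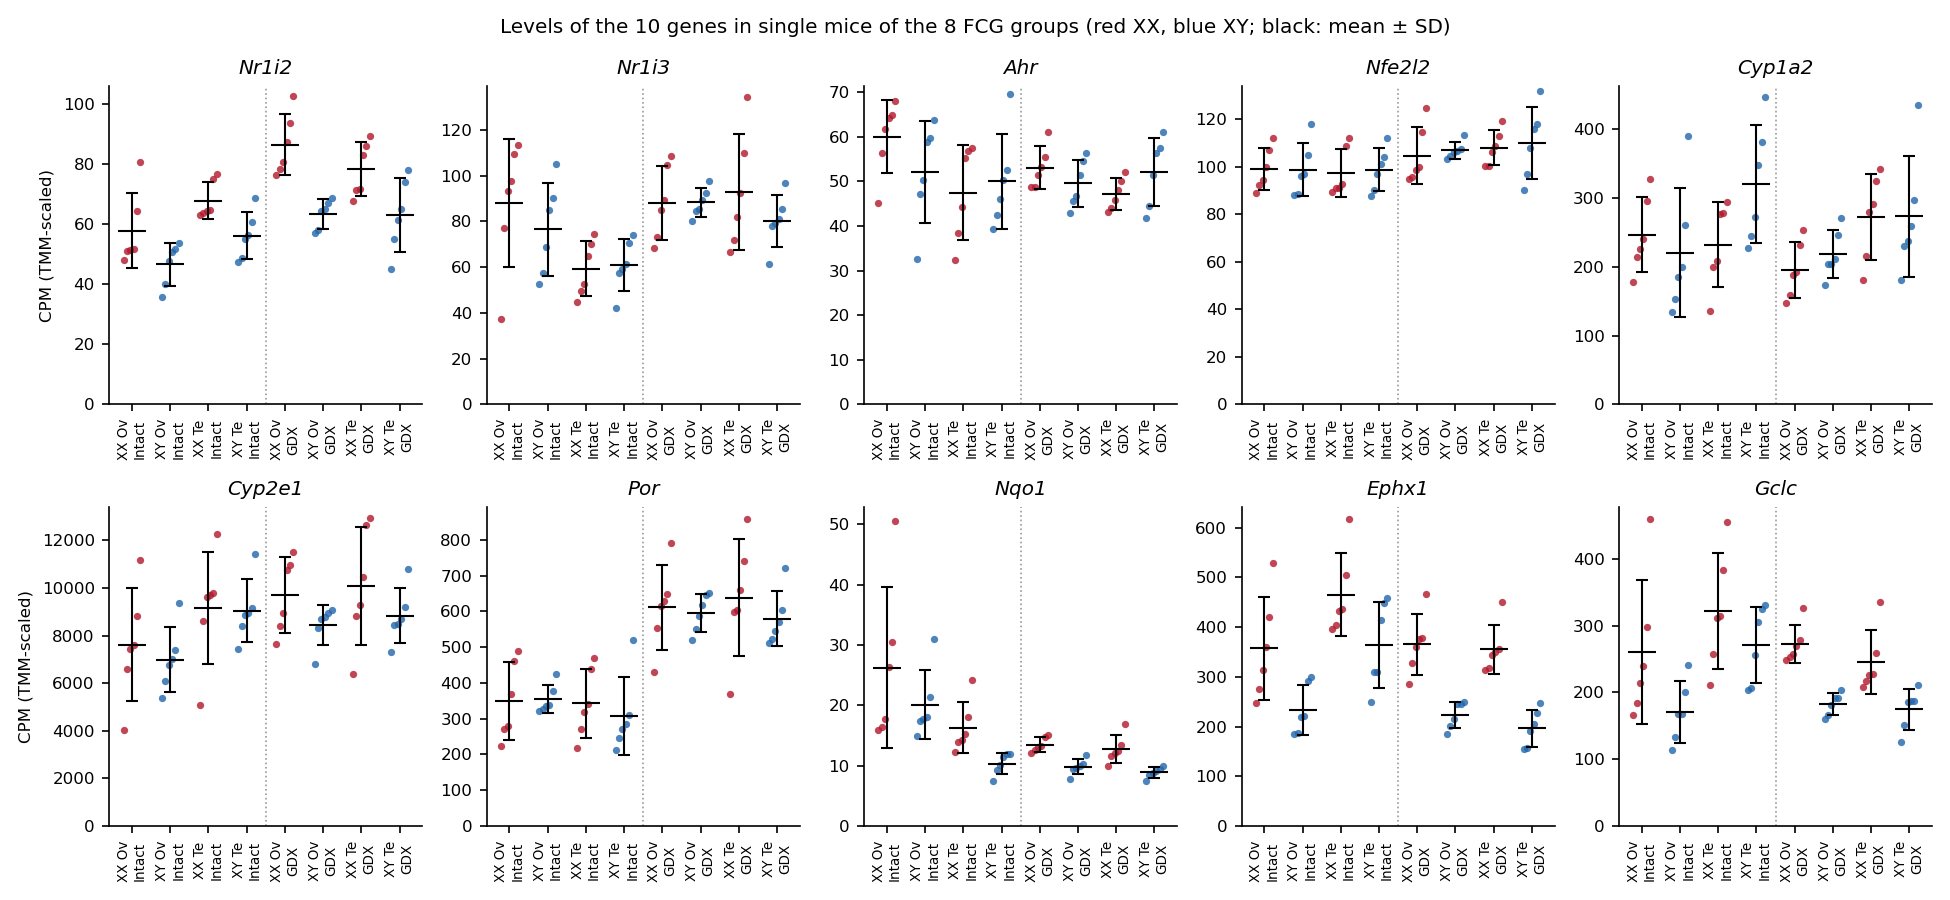
Level of each of the 10 genes in CPM (vertical axis, from 0) in the 8 groups (horizontal axis, 6 mice each); points are mice, the line is the group mean and the bar the SD. Por was at 213 to 521 CPM in intact and 368 to 857 CPM in GDX mice, Nqo1 was highest in XX Ov Intact mice (up to 50.6 CPM), and Ephx1 was higher in the XX than in the XY group at each gonad and surgery.

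The gonadal effect, Ov Intact against Te Intact mice with 12 mice each, addresses how gonads and their hormones bear on these genes. Nqo1 and Nr1i3 were higher in mice with ovaries, and Ephx1, Gclc and Nr1i2 were higher in mice with testes, so 5 of the 10 passed the test against 25.3% of all tested genes (2171 higher and 1736 lower with ovaries, or 2145 and 1009 with library totals in place of TMM). Ahr, Nfe2l2, Cyp1a2, Cyp2e1 and Por did not pass. Here and below, a gene passed at an adjusted p under 0.05 in the quasi-likelihood test of edgeR, adjusted by Benjamini-Hochberg over the 15414 tested genes, and differences are log2 fold changes (first group minus second) with their SE.

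Nqo1, which reduces quinones by 2 electrons at once and is a classic target of both the AhR and Nrf2, had the largest difference of the 10. Its lowest, median and highest levels were 15.97, 21.98 and 50.6 CPM in XX Ov Intact and 14.8, 17.9 and 30.9 CPM in XY Ov Intact mice, against 12.3, 14.7 and 24.2 CPM in XX Te Intact and 7.40, 10.7 and 11.99 CPM in XY Te Intact mice. The means of the 12 mice were 23.2 ± 10.3 (SD, n = 12) CPM with ovaries and 13.3 ± 4.42 (SD, n = 12) CPM with testes. All 12 mice with ovaries were above the median with testes, and 9 of 12 mice with testes were below every mouse with ovaries. The log2 difference was 0.82 (SE 0.14, adjusted p = 1.89e-05).

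CAR (Nr1i3) was the other member higher with ovaries. In XX Ov Intact mice it ran from 37.2 through a median of 95.4 to 113 CPM and in XY Ov Intact mice from 52.4 through 76.9 to 105 CPM, while in XX Te Intact mice it ran from 44.65 through 58.7 to 74.3 CPM and in XY Te Intact mice from 42.0 through 60.4 to 74.1 CPM. Of the 12 mice with ovaries 8 were above every mouse with testes, and the others overlapped them. The difference was 0.45 (SE 0.13, adjusted p = 0.0117). PXR (Nr1i2) went the other way, with 52.3 ± 11.3 (SD, n = 12) CPM with ovaries and 62.0 ± 9.09 (SD, n = 12) CPM with testes, a log2 difference of -0.25 (SE 0.09, adjusted p = 0.0282) that 10 of 12 mice with testes showed by lying above the median with ovaries. This call was lost with library totals (adjusted p = 0.0677), with 1 surrogate variable, an estimated hidden factor (0.0558) and in 8 of the fits that left out 1 intact mouse (XX Ov Intact replicates 1, 2 and 4, XY Ov Intact 4 and 5, XX Te Intact 3 and 6, and XY Te Intact 5, with adjusted p between 0.0503 and 0.0651).

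Ephx1, which opens reactive epoxides to diols, was 247.9, 336 and 529 CPM (lowest, median, highest) in XX Ov Intact and 185, 219.8 and 301 CPM in XY Ov Intact mice, against 397, 435 and 617 CPM in XX Te Intact and 249, 362 and 458 CPM in XY Te Intact mice. Of the 12 mice with testes 11 were above the median with ovaries, and the difference was -0.51 (SE 0.12, adjusted p = 0.00104). Gclc had a difference of much the same size, -0.49 (SE 0.13, adjusted p = 0.0065), with means of 215 ± 91.8 (SD, n = 12) CPM with ovaries and 296 ± 75.1 (SD, n = 12) CPM with testes. All 12 mice with testes were above the Gclc median with ovaries, and 7 of 12 with ovaries were below every mouse with testes. Fitted on the 4 intact groups alone, the test passed Nqo1 and Ephx1 and not Nr1i3 (adjusted p = 0.0609), Gclc (0.0638) or Nr1i2 (0.0905).

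Among the members that did not pass, Cyp2e1 was at 7303 ± 1877 (SD, n = 12) CPM with ovaries and 9108 ± 1820 (SD, n = 12) CPM with testes, a difference of -0.32 (SE 0.12, adjusted p = 0.0531) with a 95% interval of -0.56 to -0.08. It passed with DESeq2 (adjusted p = 0.0415) and in 8 of the fits without 1 mouse. Ahr had 0.20 (adjusted p = 0.117), Cyp1a2 -0.23 (0.269), Por 0.11 (0.541) and Nfe2l2 0.01 (0.899, 95% interval -0.11 to 0.13). The median log2 difference of the 10 was -0.11, beside 0.04 over all tested genes, and the median size regardless of sign was 0.28 beside 0.22. Lymphocyte markers moved with this comparison, 5 of 6 higher with ovaries (summed 2.68 to 21.6 against 1.24 to 7.26 CPM), as did 3 of 7 Kupffer cell markers (315 to 1082 against 238 to 791 CPM). Of 7 hepatocyte markers 3 were lower with ovaries, with a list median of -0.23, although the summed level overlapped (76055 to 145731 against 66324 to 144336 CPM). None of these markers was at 0 in all mice with ovaries or all with testes, and their part in these results was not tested. Over all tested genes 14.1% were higher and 11.3% lower with ovaries.

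After GDX, Ov against Te mice addresses whether a difference remains once the gonads are gone. None of the 10 members passed in edgeR or in DESeq2, beside 0.0908% of all tested genes. The log2 differences ran from -0.40 in Cyp1a2 to 0.11 in Nqo1, and 1 member, Cyp1a2, and 475 genes in all had an unadjusted p under 0.05. Nqo1 was at 11.6 ± 2.25 (SD, n = 12) CPM in Ov GDX and 10.8 ± 2.62 (SD, n = 12) CPM in Te GDX mice. The 95% interval of its difference, -0.16 to 0.38, left out the 0.82 seen in intact mice, and the interval for Ephx1, -0.11 to 0.34, left out -0.51. For Gclc the interval was -0.16 to 0.36, and for Nr1i3 it was -0.23 to 0.29. These intervals do not test whether the intact and GDX differences are unlike. That test is the one of castration against ovariectomy, given below.

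The chromosomal effect, XX against XY mice with 24 each over both gonads and both surgeries, addresses the sex chromosomes apart from the gonads. Ephx1, Nqo1, Gclc and PXR were all higher in XX mice, 4 of the 10 against 36.7% of all tested genes and 21.9% called higher in XX. None was lower, beside 14.8% of all genes. The same 4 members were called with library totals, while the balance of all genes turned, from 3382 higher and 2275 lower to 1208 and 3081. CAR, Ahr, Nfe2l2, Cyp1a2, Cyp2e1 and Por had differences between -0.12 and 0.13 and did not pass.

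Ephx1 had the largest XX to XY difference, 0.63 (SE 0.08, adjusted p = 1.88e-08), with means of 386 ± 86.2 (SD, n = 24) CPM in XX and 255 ± 83.9 (SD, n = 24) CPM in XY mice. All 24 XX mice were above the XY median and 15 of 24 XY mice were below every XX mouse. After GDX the groups parted fully, with lowest, median and highest levels of 285, 368 and 467 CPM in XX Ov GDX and 314, 347 and 451 CPM in XX Te GDX mice against 184, 230.0 and 249 CPM in XY Ov GDX and 154, 197 and 247 CPM in XY Te GDX mice. Every XX GDX mouse was above every XY GDX mouse, while in intact mice the ranges overlapped (248 to 617 against 185 to 458 CPM). How many of all tested genes parted as fully was not counted, for Ephx1 or for the separations given for other members. In XX against XY mice after GDX, 34.3% of all tested genes passed, so whether this separation is unusual cannot be told.

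Gclc showed much the same order after GDX. It was at 249, 264 and 326 CPM in XX Ov GDX and 207, 227 and 336 CPM in XX Te GDX mice, against 160, 186 and 203 CPM in XY Ov GDX and 126, 187 and 211 CPM in XY Te GDX mice, so that 11 of the 12 XX GDX mice were above every XY GDX mouse. Over all mice the difference was 0.48 (SE 0.09, adjusted p = 5.6e-05), with 22 of 24 XX mice above the XY median. Nqo1 was 0.51 higher in XX (SE 0.10, adjusted p = 4.69e-05), with 23 of 24 XX mice above the XY median of 10.01 CPM. PXR was 0.34 higher (SE 0.06, adjusted p = 1.49e-05), at 72.6 ± 14.3 (SD, n = 24) against 57.4 ± 10.5 (SD, n = 24) CPM, with 20 of 24 XX mice above the XY median.

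Within the cohorts, which differ in surgery, diet time and reads outside genes, the same 4 members passed in each. In intact mice the background was 10.7% of all tested genes, and the differences were 0.52 for Nqo1 (adjusted p = 0.0077), 0.48 for Ephx1 (0.00299), 0.43 for Gclc (0.0278) and 0.29 for Nr1i2 (0.0183). After GDX the background was 34.3%, and they were 0.49 for Nqo1 (0.00489), 0.78 for Ephx1 (4.42e-07), 0.53 for Gclc (0.0014) and 0.38 for Nr1i2 (0.000416). The interaction of chromosomes with GDX was called for none of the members in edgeR or DESeq2, beside 2.12% of all genes, and no member had an unadjusted p under 0.05 where 2126 genes did. It ran from -0.09 in Ahr to 0.30 in Ephx1 (adjusted p = 0.419). None of the 4 passed when the 4 intact groups were fitted alone (adjusted p from 0.0596 for Ephx1 to 0.226 for Gclc), and the Nr1i2 call was lost without XX Ov Intact replicate 3 (adjusted p = 0.0613). With library totals the GDX calls of Nr1i2 (0.20, adjusted p = 0.123) and Gclc (0.36, 0.0918) were lost, and with the share of reads outside genes as a covariate Nqo1 was 0.14 in GDX mice (adjusted p = 0.473) and 0.32 over both cohorts (0.00528). The Gclc call in intact mice was lost with library totals (0.109), with no filter (0.0525) and without any 1 of 8 mice (XX Ov Intact replicates 3 and 4, XY Ov Intact 5 and 6, XX Te Intact 1 and 4, and XY Te Intact 1 and 2, with adjusted p between 0.052 and 0.0841). Another of the 4 calls in intact mice was also lost with library totals, and likewise with no filter.

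Kupffer cell markers were lower in XX mice, 6 of 7, with summed levels of 158 to 791 (median 317) CPM against 318 to 1283 (median 725) CPM in XY mice. So were 5 of 6 lymphocyte markers (1.24 to 11.98 against 2.26 to 21.6 CPM) and all 4 tested neutrophil markers (0.0786 to 29.1 against 1.47 to 785 CPM), and 2 of 5 cholangiocyte markers were higher. No marker of these lists was at 0 in all XX or all XY mice. Over all tested genes 21.9% were higher and 14.8% lower in XX mice. Summed hepatocyte markers overlapped almost fully, at 66324 to 145731 CPM in XX and 76055 to 144336 CPM in XY mice. The part of these cells in the differences of Ephx1, Gclc, Nqo1 and Nr1i2 was not tested.

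**Figure D2:**
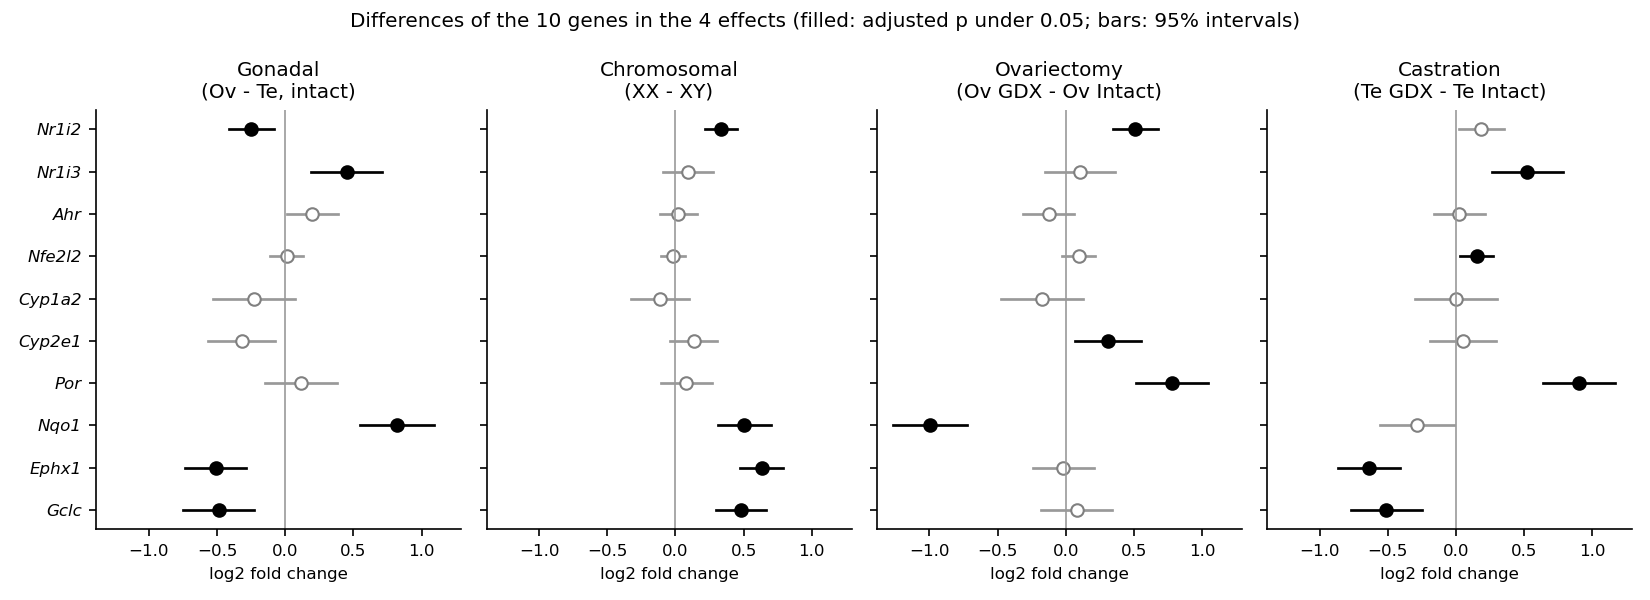
Log2 fold change (horizontal axis) of each of the 10 genes (vertical axis) for gonads, chromosomes, ovariectomy and castration, with 95% intervals; filled points passed the test and open points did not. Nqo1 and Ephx1 lie on opposite sides of 0 in the gonadal effect (0.82 and -0.51) and on the same side in the chromosomal effect (0.51 and 0.63), and Por lies far to the right after both surgeries (0.78 and 0.90).

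The ovariectomy effect, Ov GDX against Ov Intact, and the castration effect, Te GDX against Te Intact, with 12 mice in each arm, address the loss of each kind of gonad. Por rose after both. After ovariectomy PXR and Cyp2e1 also rose and Nqo1 fell, 4 of the 10 against 69.4% of all tested genes, a share of members below the background. After castration CAR and Nfe2l2 rose and Ephx1 and Gclc fell, 5 of the 10 against 63.3%. The genes that rose and fell moved with library totals from 5554 and 5141 to 7355 and 3769 after ovariectomy and from 5147 and 4612 to 7296 and 3211 after castration. The median size of the members' differences was 0.15 after ovariectomy and 0.24 after castration, beside 0.47 and 0.40 over all tested genes.

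Por was the member that most separated GDX from intact mice. Its lowest, median and highest levels were 225, 324 and 490.0 CPM in XX Ov Intact and 321, 337 and 424 CPM in XY Ov Intact mice, against 432, 623 and 791 CPM in XX Ov GDX and 519, 603 and 652.5 CPM in XY Ov GDX mice. Of 12 Ov GDX mice 11 were above every Ov Intact mouse, with a difference of 0.78 (SE 0.14, adjusted p = 3.01e-06). In mice with testes Por ran from 218 through 330.0 to 469 CPM in XX Te Intact and from 213 through 279 to 521 CPM in XY Te Intact mice, and from 368 through 632 to 857 CPM in XX Te GDX and from 512 through 558 to 721 CPM in XY Te GDX mice. All 12 Te GDX mice were above the Te Intact median and 10 were above every Te Intact mouse, and the difference was 0.90 (SE 0.14, adjusted p = 3.54e-07). No difference in Por was detected between gonads or chromosomes, with 95% intervals of -0.15 to 0.38 and -0.11 to 0.27.

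Nqo1 fell after ovariectomy, from 23.2 ± 10.3 (SD, n = 12) to 11.6 ± 2.25 (SD, n = 12) CPM, with all but 1 of the Ov GDX mice below every Ov Intact mouse. The difference was -0.99 (SE 0.14, adjusted p = 4.36e-08). After castration Nqo1 went from 13.3 ± 4.42 (SD, n = 12) to 10.8 ± 2.62 (SD, n = 12) CPM, -0.29 (SE 0.14, adjusted p = 0.0679), and did not pass. The reverse held for Ephx1, which was at 415 ± 96.8 (SD, n = 12) CPM in Te Intact and 276 ± 92.7 (SD, n = 12) CPM in Te GDX mice, -0.64 (SE 0.12, adjusted p = 8.45e-06), and at 296 ± 101 (SD, n = 12) and 294 ± 86.8 (SD, n = 12) CPM before and after ovariectomy, -0.02 with a 95% interval of -0.24 to 0.21. Gclc fell by 0.51 after castration (SE 0.13, adjusted p = 0.00101), and its ovariectomy difference was 0.08 with a 95% interval of -0.18 to 0.34. With library totals the castration difference of Gclc was -0.32 and did not pass (adjusted p = 0.0735).

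Tested against each other, castration and ovariectomy differed for 2 of the 10 members, Nqo1 by 0.71 (SE 0.20, adjusted p = 0.0237) and Ephx1 by -0.62 (SE 0.16, adjusted p = 0.0156), beside 5.6% of all tested genes. The same contrast is the gonadal effect in intact mice minus the gonadal effect after GDX, so these are not separate results. Gclc had -0.59 (adjusted p = 0.0514, under 0.05 with DESeq2 at 0.0256), Nr1i2 -0.32 (0.0991) and Nr1i3 0.42 (0.171). The Nqo1 call was lost without XY Ov Intact replicate 6 (0.62, adjusted p = 0.0554), and the Ephx1 call with library totals (-0.62, adjusted p = 0.0597).

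Among the sensors, PXR was 0.51 higher after ovariectomy (SE 0.09, adjusted p = 1.55e-06), with all 12 Ov GDX mice above the Ov Intact median and 10 of 12 Ov Intact mice below every Ov GDX mouse. After castration it was 0.19 higher (SE 0.09, adjusted p = 0.0532) and passed with DESeq2 (0.0427). CAR was 0.52 higher after castration (SE 0.13, adjusted p = 0.000811), at 86.5 ± 19.97 (SD, n = 12) against 60.1 ± 11.2 (SD, n = 12) CPM, with 9 of 12 Te GDX mice above every Te Intact mouse, and its ovariectomy difference of 0.10 (95% interval -0.16 to 0.36) did not pass. Nfe2l2 was 0.15 higher after castration (SE 0.06, adjusted p = 0.0303), at 109 ± 11.4 (SD, n = 12) against 98.2 ± 9.15 (SD, n = 12) CPM. That call was lost with no filter on low counts (0.168), with 47 mice (without XX Te Intact replicate 5, 0.0578), with 1 surrogate variable (0.117) and in 8 of the fits without 1 mouse (XX Te Intact replicates 4, 5 and 6, XY Te Intact 1 and 3, XX Te GDX 5, and XY Te GDX 1 and 2, with adjusted p between 0.0523 and 0.125). Cyp2e1 was 0.31 higher after ovariectomy (SE 0.12, adjusted p = 0.0255), a call lost with 1 surrogate variable (0.146) and without XX Ov Intact replicate 4 (0.0593) or XY Ov Intact replicate 4 (0.0518).

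With the share of reads outside genes as a covariate, no member passed after ovariectomy and 3 passed after castration, Ephx1 (-1.37, adjusted p = 0.0325), Gclc (-1.46, 0.0446) and Nqo1, whose sign turned (1.34, 0.0439). Of all 15414 tested genes, 20 passed after ovariectomy and 1161 after castration in that fit. Por then stood at 0.68 (adjusted p = 0.451) and 0.80 (0.262). Since that share did not overlap between intact and GDX mice, the covariate and the surgery cannot be told apart. Stellate cell markers moved with surgery, 4 of 7 higher and 1 lower after ovariectomy and 5 of 7 higher after castration, shares near those of all genes, with summed levels of 268 to 530 CPM in intact and 242 to 731 CPM in GDX mice. After ovariectomy 3 of 6 lymphocyte markers were lower, 3 of 5 cholangiocyte markers higher, 2 of 7 endothelial markers higher and 1 lower, 1 of 7 Kupffer cell markers higher and 3 lower, and 2 of 7 hepatocyte markers higher and 3 lower. After castration 1 of 6 lymphocyte markers was higher, 2 of 5 cholangiocyte markers were higher and 1 lower, 3 of 7 endothelial markers were higher and 1 lower, 1 Kupffer cell marker was higher and 1 lower, and 2 hepatocyte markers were higher and 2 lower. Neutrophil markers fell, 3 of 4 after ovariectomy and 2 of 4 after castration (1.64 to 785 CPM in intact and 0.0786 to 70.9 CPM in GDX mice), and Ly6g was at 0 in every mouse of XX Te Intact, XX Ov GDX and XX Te GDX. In either direction, 69.4% of all tested genes were called after ovariectomy and 63.3% after castration, and the shares of these marker lists were near or below those. The part of these cells in the members' differences was not tested.

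Ahr and Cyp1a2 passed in none of the 10 comparisons. Ahr was at 32.3 to 69.5 CPM over the 48 mice, with group means from 47.2 ± 3.54 (SD, n = 6) CPM in XX Te GDX to 60.0 ± 8.26 (SD, n = 6) CPM in XX Ov Intact mice. Cyp1a2 was more variable, at 135 to 447 CPM, with group means from 196 ± 40.7 (SD, n = 6) CPM in XX Ov GDX to 321 ± 86.3 (SD, n = 6) CPM in XY Te Intact mice. Its interaction of gonad with chromosomes in intact mice, 0.62 (adjusted p = 0.769), was the largest of the members, and 0.0% of all genes were called in that comparison by edgeR, with 989 genes and 1 member (Cyp1a2) at an unadjusted p under 0.05. DESeq2 called none of the members there either.

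How sensors and enzymes varied together from mouse to mouse was measured inside each cohort of 24, on log2 CPM with group means subtracted, for 13 pairs in each of 2 cohorts. Of the 26 relations, 7 passed at an adjusted p under 0.05, with permutations made within groups. Cyp1a2 and Cyp2e1, both pericentral P450 enzymes, varied together in intact mice (Pearson r = 0.73, adjusted permutation p = 0.00026; Spearman rho = 0.74, 0.00104; r = 0.79, 0.00052 without the 2 mice farthest from the Cyp1a2 median) and in GDX mice (r = 0.59, adjusted permutation p = 0.0215; rho = 0.64, 0.0119; r = 0.70, 0.0169 without 2). The raw p of the intact relation, 1e-05, is the smallest that 100000 permutations can give.

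Ahr and Cyp1a2, a sensor and its textbook target, varied together in intact mice (r = 0.66, adjusted permutation p = 0.00978; rho = 0.76, 0.00104; r = 0.70, 0.0065 without 2). In GDX mice r was -0.14 (adjusted permutation p = 0.891; rho = -0.15, 0.713). CAR and Por varied together in GDX mice (r = 0.75, adjusted permutation p = 0.00607; rho = 0.74, 0.0015; r = 0.69, 0.0267 without 2), and in intact mice r was 0.20 (adjusted permutation p = 0.721; rho = 0.15, 0.713). PXR and CAR did so too in GDX mice (r = 0.72, adjusted permutation p = 0.0013; rho = 0.73, 0.0015; r = 0.63, 0.0169 without 2), with r = 0.05 in intact mice (adjusted permutation p = 0.891; rho = 0.01, 0.960). The difference between cohorts was not tested for any pair.

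PXR and Por had r = 0.61 in intact mice (adjusted permutation p = 0.00978; rho = 0.61, 0.0119; r = 0.58, 0.0372 without 2) and r = 0.46 in GDX mice, which did not pass (adjusted permutation p = 0.0578; rho = 0.50, 0.0575). CAR and Ephx1 had r = -0.56 in intact mice (adjusted permutation p = 0.0412; rho = -0.51, 0.0575), but without the 2 farthest mice r was -0.31 (adjusted p = 0.379), so that relation rests on those mice. Nfe2l2 did not pass with any of Nqo1, Gclc or Ephx1. The nearest was Gclc in intact mice, with r = 0.50 (adjusted permutation p = 0.0578; rho = 0.51, 0.0575). All values of a mouse come from 1 library and share its depth and scaling.

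**Figure D3:**
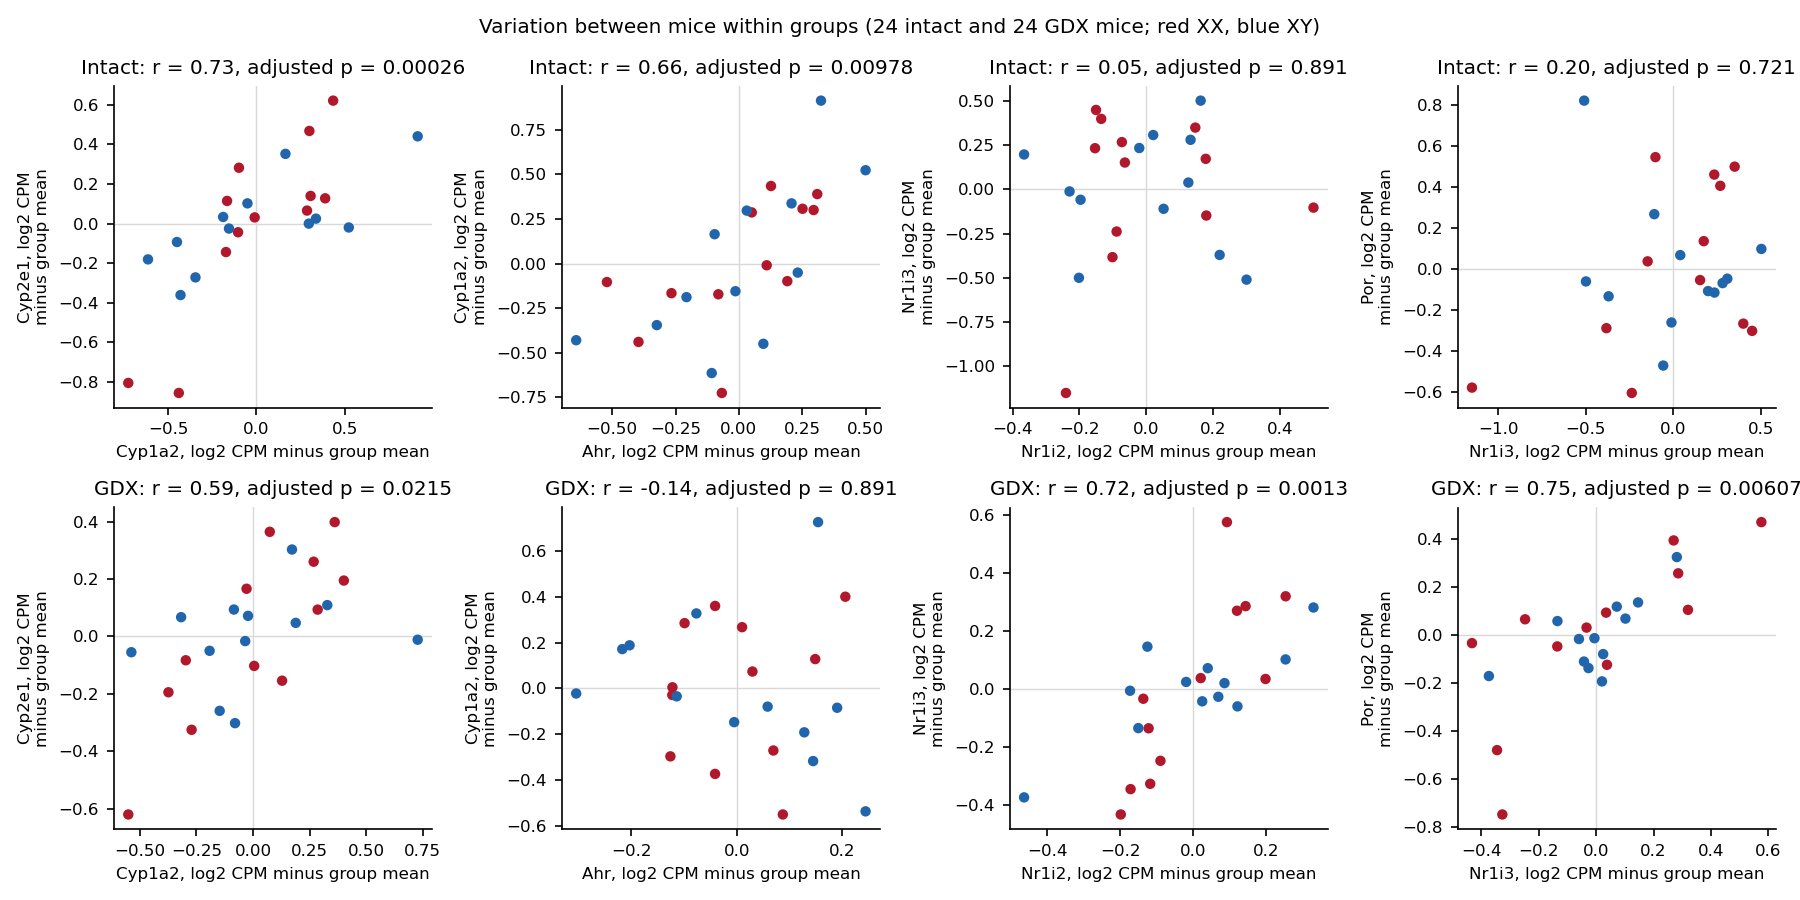
Level of the second gene of a pair against the first, both as log2 CPM after subtracting the group mean, 1 point per mouse, with intact and GDX mice (24 each) set apart. Ahr and Cyp1a2 rise together in intact mice (r = 0.66), and in GDX mice r was -0.14 and did not pass. CAR and Por rise together in GDX mice (r = 0.75), and in intact mice r was 0.20 and did not pass. The difference between cohorts was not tested.

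Over all 48 mice, the tested genes most like each member by Pearson r of log2 CPM are given as a description, in which the groups and the 2 cohorts are shared by all points. They were Sec24a (0.89) and Acad11 (0.88) for Nr1i2, Cyp2c37 (0.84) and Serpinb1a (0.79) for Nr1i3, Trpm7 (0.61) and Zzz3 (0.60) for Ahr, and Rtn1 (0.68) and Dbn1 (0.66) for Nfe2l2. Among the enzymes they were Serpina1d and Slc43a1 (both 0.66) for Cyp1a2, Macrod1 (0.83) for Cyp2e1, Asl (0.92) and 8430419L09Rik (0.91) for Por, Rtn4 (0.93) and Cd36 (0.92) for Nqo1, Actr1b and Aox1 (both 0.88) for Ephx1, and Rhou (0.88) and Ephx1 itself (0.86) for Gclc. With group means subtracted, the values of these neighbours lay between 0.57 for Zzz3 and 0.85 for Rhou.

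The wider pathways were followed through 4 further lists. Of 27 partners of the receptors (dimer partners, chaperones, repressors and co-regulators), 2 were higher and 7 lower with ovaries, against 14.1% and 11.3% of all tested genes (2 and 4 with library totals), and 5 were higher and 2 lower in XX mice, against 21.9% and 14.8%. After ovariectomy 15 rose and 5 fell, against 36.0% and 33.4% of all genes, and after castration 9 rose and 4 fell, against 33.4% and 29.9% (19 and 3, and 17 and 2, with library totals). Nr0b2, the small heterodimer partner that represses other nuclear receptors, was 3.78 ± 1.42 (SD, n = 12) CPM in Ov Intact and 8.71 ± 3.26 (SD, n = 12) CPM in Te Intact mice (-1.19, SE 0.25, adjusted p = 0.000505) and rose by 1.14 after ovariectomy (SE 0.25, adjusted p = 0.000117). Tiparp, a repressor of the AhR that the AhR itself induces, was 0.49 higher with ovaries (SE 0.11, adjusted p = 0.000725). Rbx1, a subunit of the ligase that KEAP1 directs to Nrf2, fell after both surgeries (-1.34 and -0.99), and Dnajc7, a co-chaperone that holds CAR in the cytoplasm, rose after castration (0.71, SE 0.09, adjusted p = 3.82e-08). The extremes in XX against XY were Nfe2l1, a relative of Nrf2 (0.30), and Bach1, a repressor at Nrf2 sites (-0.19), though the direction of this list turned with library totals, from 5 higher and 2 lower to 0 and 5.

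Of 38 genes listed here as CAR or PXR targets, 25 were higher and 1 lower in XX mice, against 21.9% and 14.8% of all genes, with a median of 0.36 beside 0.05, and 16 and 1 with library totals. Whether CAR or PXR acted on these genes in these mice was not tested. With ovaries 13 were higher and 6 lower, against 14.1% and 11.3% (14 and 3 with library totals). After castration 15 rose and 15 fell, against 33.4% and 29.9% (17 and 12 with library totals), and after ovariectomy 5 rose and 15 fell, against 36.0% and 33.4% (10 and 9 with library totals). The largest gonadal difference was Cyp2a4, a steroid hydroxylase known to be higher in female liver, at 788 ± 382 (SD, n = 12) against 16.6 ± 19.4 (SD, n = 12) CPM (5.88, SE 0.37, adjusted p = 1.06e-16). After castration Cyp2b13 rose from 5.86 ± 5.80 (SD, n = 12) to 366 ± 132 (SD, n = 12) CPM (6.11, SE 0.33, adjusted p = 1.21e-18). Both are members of families with near-identical copies, so their reads could be shared with Cyp2a5 or Cyp2b9. Sult5a1, a sulfotransferase, was lowest with ovaries (-1.19) and after castration (-1.93), and Abcb1a, the drug efflux pump P-glycoprotein, rose by 1.45 after ovariectomy (SE 0.19, adjusted p = 2.01e-08). In XX against XY the extremes were Gsta1, a glutathione transferase near Gsta2 in sequence (2.08, at 1.73 against 0.436 CPM), and Gadd45b, a stress gene (-1.28), and Gsta1 was also the lowest after ovariectomy (-1.43, adjusted p = 0.0278).

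The AhR battery gave mixed directions, with 4 higher and 2 lower of 11 tested with ovaries, 2 and 2 in XX mice, 4 and 2 after ovariectomy and 6 and 1 after castration (Nfe2l2, a member, is in this list). The genes called in either direction were thus 6, 4, 6 and 7 of 11, beside 25.3%, 36.7%, 69.4% and 63.3% of all genes, close to or below the background in XX mice and after both surgeries. Ugt1a6b, a glucuronosyltransferase that shares exons with the rest of its locus, was lower with ovaries (-0.67) and higher in XX mice (0.37). Xdh, xanthine dehydrogenase, rose by 0.77 after ovariectomy, where Tiparp fell (-0.59), and Lpcat2, a lysophospholipid acyltransferase found in macrophages, was lower in XX mice (-1.14).

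Genes of the Nrf2 response fell more often than they rose after both surgeries, while Nfe2l2 had differences of 0.10 and 0.15. Of 32 tested, 4 rose and 18 fell after ovariectomy, with a median of -0.45 beside 0.06 over all genes, and 4 rose and 20 fell after castration, with a median of -0.40 beside 0.07. Over all genes 36.0% rose and 33.4% fell after ovariectomy and 33.4% rose and 29.9% fell after castration, so the share of the list called in either direction after ovariectomy was near the background. With library totals the counts were 8 and 17, and 7 and 16. Prdx1, a peroxiredoxin with known pseudogenes, was at 2485 ± 1385 (SD, n = 12) CPM in Ov Intact and 577 ± 57.9 (SD, n = 12) CPM in Ov GDX mice (-2.11, SE 0.23, adjusted p = 2.28e-10). Gstp1, a glutathione transferase whose near-identical copy Gstp2 could take part of its reads, was at 339 ± 181 (SD, n = 12) CPM in Te Intact and 67.0 ± 25.2 (SD, n = 12) CPM in Te GDX mice (-2.29, SE 0.17, adjusted p = 2.16e-14), and was also lower with ovaries than with testes in intact mice (-1.71). Abcc4, an efflux pump, was higher with ovaries (0.86) and rose after castration (0.97), and Tkt, transketolase, rose after ovariectomy (0.54). In intact mice 3 were higher and 4 lower with ovaries, against 14.1% and 11.3%, and in XX against XY mice 14 were higher and 3 lower (against 21.9% and 14.8%, and 7 and 3 with library totals), from Me1, malic enzyme (0.63), to Hmox1, heme oxygenase, which Kupffer cells are known to make (-1.29, SE 0.15, adjusted p = 1.24e-09). In Ov against Te mice after GDX, 1 gene of the CAR and PXR list passed and none of the other 3 lists.

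**Figure D4:**
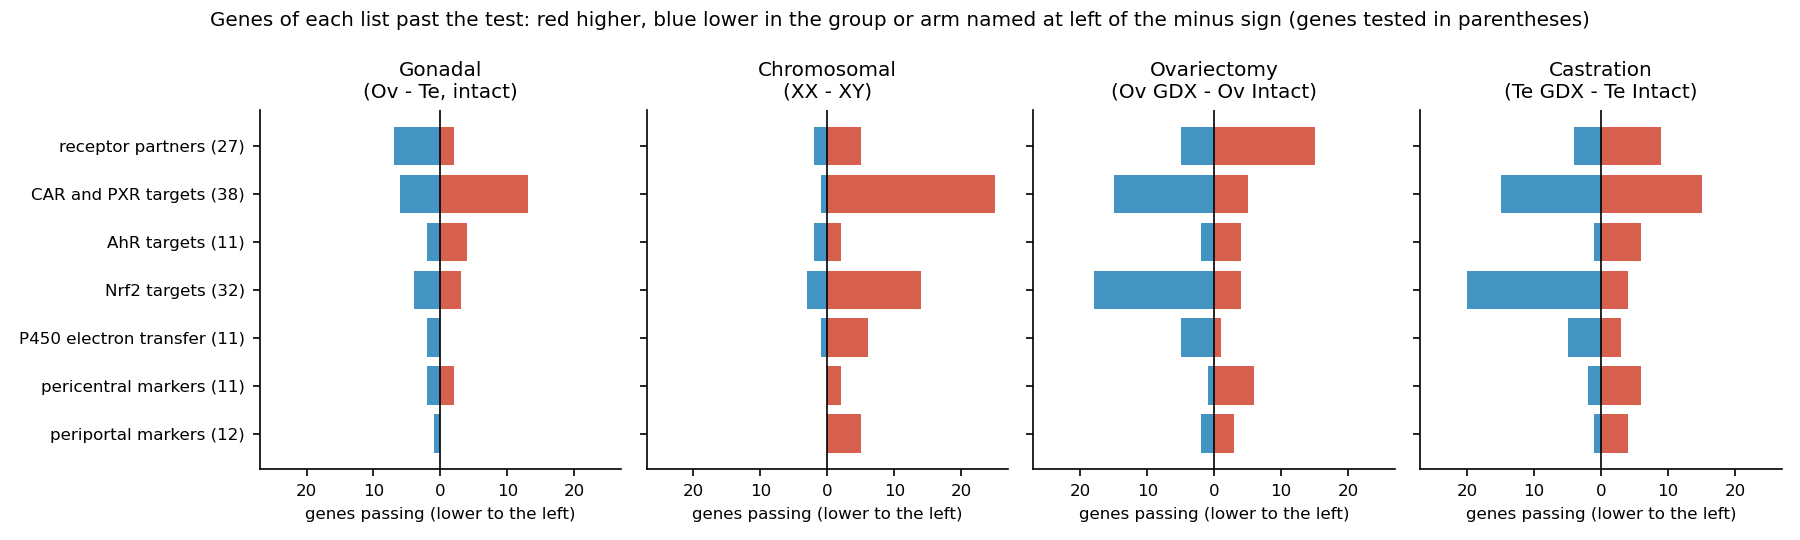
Number of genes of each list (horizontal axis, higher to the right and lower to the left of 0) that passed the test for gonads, chromosomes, ovariectomy and castration, by list (vertical axis, number tested in parentheses). The Nrf2 list leans to lower after both surgeries (18 and 20 of 32), and the CAR and PXR list to higher in XX mice (25 of 38).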

How the data were processed

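Liver RNA-seq of 48 mice (8 groups of 6, 1 library per mouse) was used. The deposited values are whole-number read counts per gene, which the authors made with STAR 2.7.10a on GRCm39 and analysed with DESeq2 1.36.0 according to their methods and processing notes. The annotation release and strand setting are not given in the sources used here. The 4 summary lines of each file (25.5 to 42.3% of reads) were left out of library sizes and tests. Groups came from the labels, and symbols were taken from a table of gene names for 31020 of 55414 identifiers. Listed genes under an older symbol were found through RefSeq synonyms. Within groups, all pairs of mice differed by more than sampling noise.

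Counts were filtered (filterByExpr, 15414 genes kept), scaled by TMM and fitted in edgeR 4.0.16 (R 4.3.3, limma 3.58.1) with robust quasi-likelihood dispersions and 1 mean per group, and 10 contrasts were tested two-sided with Benjamini-Hochberg adjustment over all genes. The chromosomal effect averages over gonads and surgeries, its versions within intact and GDX mice over gonads, and the gonadal, ovariectomy and castration effects over chromosomes. Alternatives used DESeq2 1.42.0, sva 3.50.0, other scalings and filters, a minimum fold change of 1.5, a covariate, the groups of a contrast alone, 47 mice (without XX Te Intact replicate 5) and each mouse left out. Correlations used log2 CPM with a prior count of 2, group means removed, and 100000 permutations within groups. The code was tested on simulated data. RPKM used the merged exons of an older annotation (GENCODE M1) than the one behind the counts, so these levels are approximate.

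The members were always named, as were the 2 genes most like each member and, from each list and for gonads, chromosomes, ovariectomy and castration, the genes with the highest and the lowest log2 fold change that passed and had a log2 CPM averaging 0 or more. Some results under this rule are not reported here. The members and the lists were chosen with earlier results of these data known. The edgeR tests set each difference against the spread between mice, which the main fit shares over all 8 groups. Only the fits on the groups of a contrast alone use the spread of those groups by itself. Figures were drawn with matplotlib 3.10.9.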

Additional observations from a re-analysis of the deposited data

Results flagged for a closer look

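In 4 of 80 tests of the most extreme mouse in a group of 6, the gap to the nearest mouse was larger than Dixon's critical value of 0.625 of the group's range, and chance gives about 1 in 20 such results. They were Cyp2e1 in XY Ov GDX, where the lowest mouse was at 6812 CPM, Por in XY Te Intact, where the highest was at 521 CPM, Ephx1 in XX Te GDX, with the highest at 451 CPM, and Gclc in XX Ov GDX, with the highest at 326 CPM.

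The castration and ovariectomy effects differed in a test of the difference itself for Nqo1, by 0.71 on the log2 scale (fall after ovariectomy), and for Ephx1, by -0.62 (fall after castration), both with an adjusted p under 0.05 in edgeR.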

How the results depend on the processing

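The number of members that passed was 5 in the gonadal, 4 in the chromosomal, 4 in the ovariectomy and 5 in the castration effect, 4 in XX against XY in each cohort, and 2 in castration minus ovariectomy. Tested against a minimum fold change of 1.5, which is stricter by construction, these became 0, 0, 1, 1, 0, 0 and 0. Over all 15414 tested genes the counts in the same order were 3907, 5657, 10695, 9759, 1648, 5288 and 863. With the minimum fold change they became 358, 971, 3460, 2386, 419, 1287 and 117. Fitted on the groups of the contrast alone, the gonadal count was 2 and the chromosomal count in intact mice 0, beside 1694 and 819 of 14322 genes. With library totals the chromosomal counts were 2 in intact and 2 in GDX mice and castration minus ovariectomy 1, and with no filter the chromosomal count in intact mice was 2. Over all genes these were 1145, 4195 and 647 of 15414 with library totals, and 1207 of 35860 with no filter. With the share of reads outside genes as a covariate the ovariectomy count was 0 and the castration count 3, beside 20 and 1161 of all 15414 genes. Under that covariate the sign turned for Cyp2e1 (-0.051) and Nqo1 (0.62) after ovariectomy and for Nr1i2 (-0.029), Nfe2l2 (-0.0057) and Nqo1 (1.34) after castration, and these were the only 5 of 44 single results to turn under any alternative. The cause was not tested.

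Without 1 mouse at a time, the counts were 4 to 6 (gonadal), 4 (chromosomal), 3 to 4 (ovariectomy), 4 to 7 (castration), 2 to 4 (chromosomal, intact), 4 (chromosomal, GDX), 1 to 4 (castration minus ovariectomy) and 0 in the other 3 comparisons, and no sign turned. The chromosomal count in intact mice was 2 without XX Ov Intact replicate 3. Castration minus ovariectomy counted 4 without XX Ov Intact replicate 3 or XY Te Intact replicate 3 and 1 without XY Ov Intact replicate 6. Calls were gained for Ahr (gonadal, adjusted p to 0.0402, without XY Te Intact 2 or XY Ov Intact 4), Cyp2e1 (gonadal, to 0.0118, without XX Ov Intact 3 or 5, XY Ov Intact 1 or 3, XX Te Intact 2, XY Te Intact 3, XX Te GDX 3 or XY Te GDX 1), Nqo1 (castration, to 0.0268, without XX Te Intact 3, XY Te Intact 5, XX Te GDX 3 or XX Ov Intact 6), Nr1i2 (castration, to 0.0243, without any 1 of 10 mice; castration minus ovariectomy, to 0.0228, without XX Ov Intact 3 or XY Te Intact 3) and Gclc (castration minus ovariectomy, to 0.00693, without any 1 of 12 mice). Of the 26 relations, 6 to 8 passed under the alternatives.

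With library totals in place of TMM the median of all genes moved from 0.06 to 0.27 after ovariectomy and from 0.07 to 0.27 after castration, and the genes called higher and lower in XX moved from 658 and 990 to 281 and 864 in intact and from 3001 and 2287 to 789 and 3406 in GDX mice. No paired analysis was possible because the labels give each mouse its own identifier and no replicate number, and the replicate numbers used here only name mice in the order of their records. Depth was not limiting for the members, whose lowest value was 7.40 CPM (Nqo1), well above 3 reads.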

Other observations

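Partners of the P450 enzymes, genes of heme supply and the heme oxygenase Hmox1 were also measured. Of these 11, 6 were higher and 1, Hmox1, was lower in XX mice, 1 rose and 5 fell after ovariectomy, 3 rose and 5 fell after castration, and 2 were lower with ovaries. Over all tested genes 21.9% were higher and 14.8% lower in XX mice, 36.0% rose and 33.4% fell after ovariectomy, 33.4% rose and 29.9% fell after castration, and 14.1% were higher and 11.3% lower with ovaries. Por rose after both surgeries, but Cyb5, cytochrome b5, which passes the other electron to some P450 enzymes, went from 1751 ± 776 (SD, n = 12) to 746 ± 89.3 (SD, n = 12) CPM after ovariectomy (-1.23, SE 0.16, adjusted p = 1.12e-08), and Pgrmc1, a heme-binding partner of P450 enzymes, from 1816 ± 466 (SD, n = 12) to 873 ± 180.5 (SD, n = 12) CPM after castration (-1.08, SE 0.15, adjusted p = 5.28e-08). Alas1, the rate-limiting enzyme of heme synthesis, was higher in XX mice (0.43) and after castration (0.67), Fdxr, ferredoxin reductase, rose after ovariectomy (0.50), and Cyb5r3, the reductase of cytochrome b5, was lower with ovaries (-0.43). With library totals the ovariectomy counts of this list were 4 and 5.

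Of 11 genes expressed around the central vein, 6 rose and 1 fell after ovariectomy, 6 rose and 2 fell after castration, 2 were higher and 2 lower with ovaries, and 2 were higher in XX mice. In either direction 7 of 11 were called after ovariectomy and 8 of 11 after castration, beside 69.4% and 63.3% of all genes, shares within 1 or 2 genes of the background. Aldh1b1, an aldehyde dehydrogenase, was higher with ovaries (0.57), in XX mice (0.56) and after castration (1.44). Slc13a3, a dicarboxylate transporter, rose after ovariectomy (0.98), Lect2, a secreted hepatokine, fell after both (-1.32 and -0.73), and Cyp27a1, a bile acid enzyme, was lower with ovaries (-0.53). Of 12 periportal genes, 3 rose and 2 fell after ovariectomy, 4 rose and 1 fell after castration, 5 were higher in XX mice and 1 was lower with ovaries. The 5 of 12 called after each surgery are a smaller share than the 69.4% and 63.3% of all genes. Cyp2f2, a periportal P450, was lower with ovaries (-1.01) and higher in XX mice (0.62) and after ovariectomy (0.96). In the urea cycle, Arg1 fell after both surgeries (-0.76 and -0.38) and Cps1 rose after castration (0.86).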
